A study of Mus musculus with 10 samples.

Results

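The genes described here encode 9 kinases that lie downstream of Lkb1: Brsk1 and Brsk2, Mark1 to Mark4, Nuak1, Nuak2 and Snrk. They were chosen by name, as LKB1 substrate kinases linked to polarity, axon formation and branching, and all 9 of them were found among the 19938 genes tested. Their levels came from 10 one-colour arrays, hybridised with biotin-labelled cDNA made from 250 ng of total RNA each. The Lkb1 KO samples (n = 5) were dorsal root ganglia (DRGs) of E13.5 (embryonic day) embryos in which floxed Lkb1 (gene symbol Stk11) was deleted by Wnt1-Cre, and the WT samples (n = 5) were DRGs of wild-type embryos of the same stage. The paper gives a mixed genetic background for its mice and names littermates as WT controls. Whether the WT embryos carried the floxed allele or the Cre transgene was not stated in the sources at hand. Each sample pooled the DRGs of 2 embryos, so that n counts pools. Wnt1-Cre acts in neural crest cells, from which DRG neurons and glia derive, and also in midbrain and in cells of the dorsal neural tube, so that vessels and other tissue of other origin kept Lkb1.

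LKB1 is a kinase that, together with the pseudokinase STRAD and the scaffold protein MO25, phosphorylates a threonine in the activation loop of AMPK and of a family of AMPK-related kinases. BRSK1 and BRSK2 (also called SAD-B and SAD-A) are neuronal kinases required for the polarization of cortical neurons. The MARK kinases are the mammalian relatives of the polarity protein PAR-1 and phosphorylate microtubule-associated proteins such as tau, which detaches them from microtubules. NUAK1 acts in the branching of cortical axons, NUAK1 and NUAK2 both bind myosin phosphatase, and SNRK is a more distant member of the family. All of this regulation is at the level of protein and phosphorylation. The arrays measured transcript levels, and the comparison asked whether the transcripts of these kinases differed once their upstream kinase was deleted.

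The tissue matched its label. Of the sensory neuron markers, Isl1 had a mean of 11.77 in WT and 11.51 in Lkb1 KO on the log2 scale of the deposited values, and Prph had 12.04 and 11.94. The means of the skeletal muscle and spinal cord lists were below 5.4 in every sample but Lkb1 KO replicate 3, where the muscle list stood at 6.04. Of the lists of other cell types, 7 of 8 fibroblast and mesenchyme genes were higher in Lkb1 KO and 1 of 5 glial genes (Cdh19) was lower, while 0 of 5 pericyte, 0 of 5 endothelial and 0 of 4 macrophage genes passed the test. Of 4 spinal cord genes 1 was higher (Pax6, log2 fold change 0.24), and the list mean ran from 4.97 to 5.08 in Lkb1 KO and from 4.91 to 4.99 in WT. Stk11 was at 8.61, 8.61, 8.51, 8.70 and 9.08 in WT replicates 1 to 5 and at 7.68, 7.82, 7.69, 7.77 and 7.94 in Lkb1 KO replicates 1 to 5. The groups did not overlap, and the log2 fold change was -0.92 (standard error, SE, 0.092, limma adjusted p = 1.16e-04). The pools also differed in the sex of their embryos, as the mean of 3 Y-linked genes was 5.02 and 5.21 in Lkb1 KO replicates 2 and 5 and at least 8.80 in the other 8 samples.

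None of the 9 kinase genes passed the test. At the threshold of 0.05 on the adjusted p from limma 0 were called higher and 0 lower, where 3.87% of all genes tested were called (2.49% higher and 1.38% lower). A one-way analysis of variance also called 0 of the 9. With the replicate number as a block in limma 0 of the 9 were called as well, beside 6.42% of all genes. An unadjusted p under 0.05 was reached by 3 of the 9, Brsk1, Brsk2 and Mark1, as by 15.3% of all genes. The 3 had lower values in Lkb1 KO and 0 had higher ones, where the shares over all genes were 7.77% and 7.51%. Without WT replicate 3 this count was 0. In none of the 9 were the WT and Lkb1 KO samples fully separated, as they were in 5.34% of all genes. The median size of the log2 fold change was 0.052 for the 9 kinases and 0.047 for all genes tested. The pooled SD within a group ran from 0.030 for Mark3 to 0.17 for Nuak1, with a median of 0.076, beside a median of 0.081 for all genes.

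**Figure D1:**
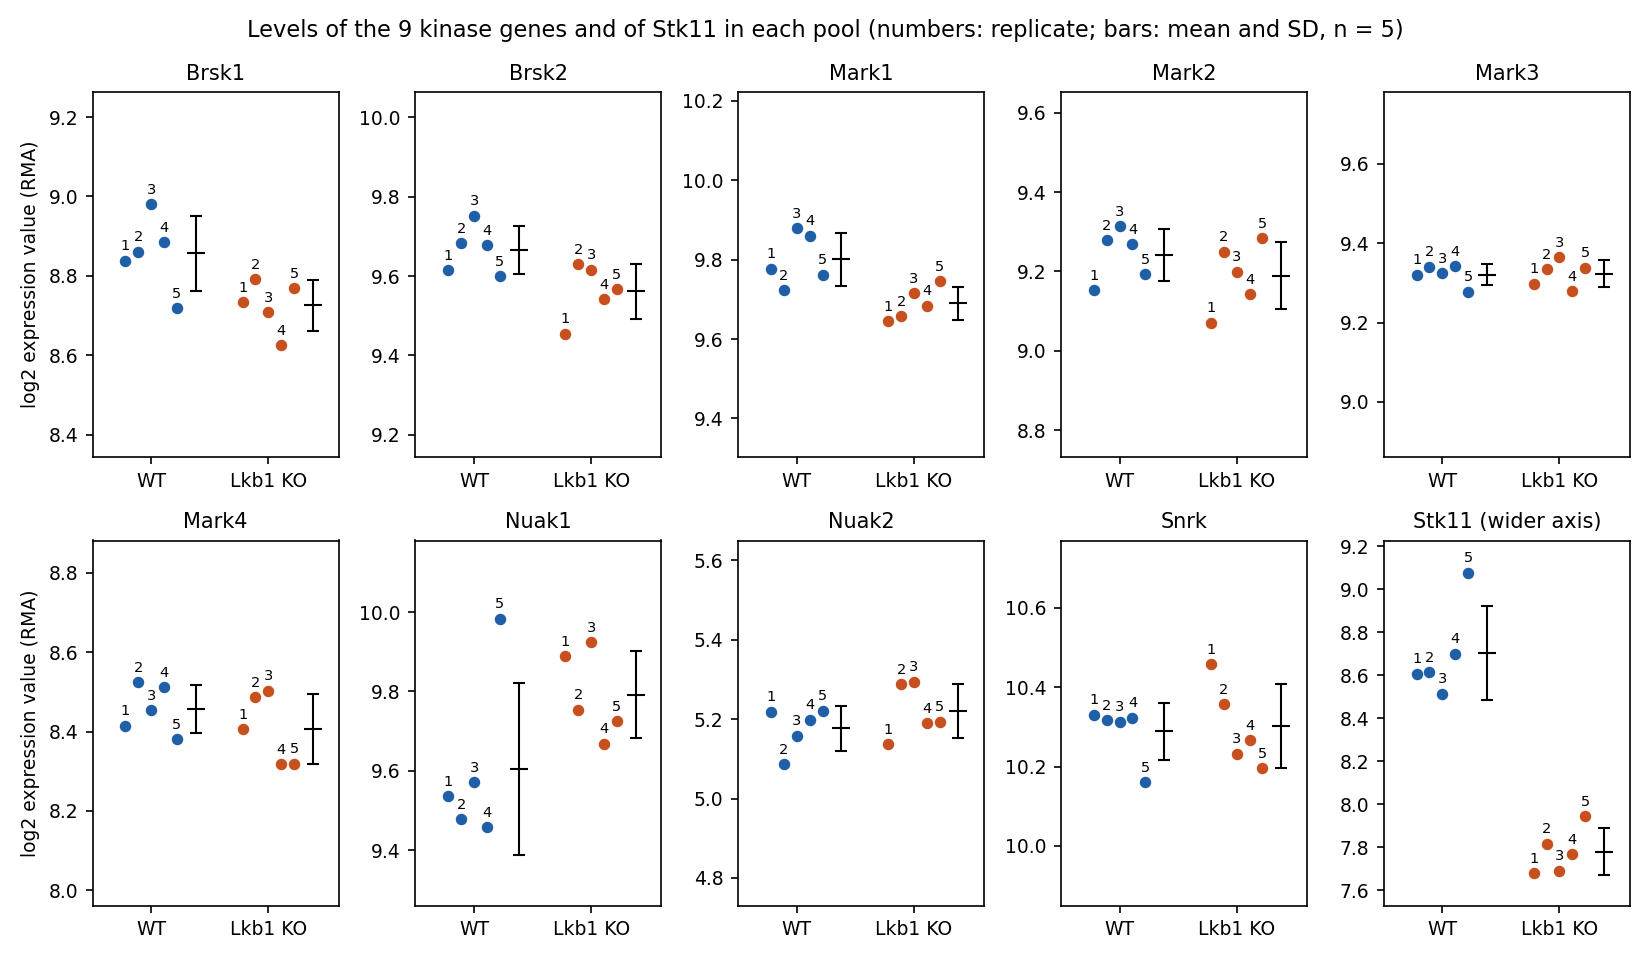
Log2 expression values (y axis, RMA) of the 9 kinase genes and of Stk11 in each WT (blue) and Lkb1 KO (orange) pool, with replicate numbers beside the points and the mean and SD (n = 5) as black bars. The kinase panels span the same range and the Stk11 panel a wider one. The groups overlap for each of the 9 kinases, and WT replicate 5 stands at 9.98 for Nuak1, above the other WT pools, while Stk11 is separated.

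The transcripts of both BRSK kinases were slightly lower in Lkb1 KO, by an amount that did not pass the test. Brsk1 was at 8.84, 8.86, 8.98, 8.88 and 8.72 in WT replicates 1 to 5 and at 8.73, 8.79, 8.71, 8.63 and 8.77 in Lkb1 KO replicates 1 to 5. WT replicate 5 lay within the Lkb1 KO range, and the other 4 WT samples lay above all 5 Lkb1 KO samples. The log2 fold change was -0.13 (SE 0.050, 95% confidence interval, CI, -0.24 to -0.022, limma adjusted p = 0.218). In linear terms the Lkb1 KO level differed from WT by -8.70%, with an interval from -15.4% to -1.52%. An exact two-sided permutation test of Brsk1 alone over 252 assignments gave p = 0.0397.

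Brsk2 was at 9.61, 9.68, 9.75, 9.68 and 9.60 in WT and at 9.46, 9.63, 9.62, 9.54 and 9.57 in Lkb1 KO, again in the order of replicates 1 to 5. The lowest Lkb1 KO value came from replicate 1, and Lkb1 KO replicates 2 and 3 lay above the lowest 2 WT values, so that the groups overlapped. The log2 fold change was -0.10 (SE 0.044, 95% CI -0.20 to -0.0077, limma adjusted p = 0.278), or -6.94% in linear terms. The exact two-sided permutation test gave p = 0.0476. Within replicate numbers, Brsk2 was lower in Lkb1 KO in 5 of 5 pairs and Brsk1 in 4 of 5. The permutation that exchanges labels only within numbers gave an exact p of 0.0625 for Brsk2, which is the smallest it allows, and 0.125 for Brsk1.

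The BRSK transcripts are neuronal, and markers of sensory neurons were lower in the same samples. The mean of 11 measured sensory neuron genes was between 10.19 and 10.30 in Lkb1 KO and between 10.35 and 10.48 in WT, and 3 of the 11 (Isl1, Prrxl1 and Elavl4) passed the test as lower. The median log2 fold change of these 11 genes was -0.18. In these bulk samples fewer cells of a type and less RNA per cell cannot be told apart, and the part of this shift in the BRSK values was not tested.

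Of the 4 MARK genes, Mark1 was the one with the smallest p. It was at 9.78, 9.72, 9.88, 9.86 and 9.76 in WT and at 9.64, 9.66, 9.72, 9.68 and 9.75 in Lkb1 KO. Only Lkb1 KO replicate 5 lay above the lowest WT sample, WT replicate 2, and Mark1 was lower in Lkb1 KO in 5 of 5 pairs. The log2 fold change was -0.11 (SE 0.041, 95% CI -0.20 to -0.022, limma adjusted p = 0.194), which in linear terms is -7.39% with an interval from -12.9% to -1.54%. The exact two-sided permutation test of Mark1 alone gave p = 0.0159, where 0.00794 is the smallest p it allows. The permutation within replicate numbers gave an exact p of 0.0625 for Mark1, the smallest it allows.

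Mark2, Mark3 and Mark4 lay closer to 0. Mark2 ranged from 9.15 to 9.31 in WT and from 9.07 to 9.28 in Lkb1 KO, and its log2 fold change came to -0.052 (SE 0.048, limma adjusted p = 0.702). A second, dimmer probe set of Mark2 (mean level 8.24) differed by 0.048 (SE 0.066), so that the 2 probe sets differed in sign and neither passed the test, and their mean gave -0.0020. Leaving out 1 sample moved the value of the brighter one between -0.076, without Lkb1 KO replicate 5, and -0.023, without Lkb1 KO replicate 1. The other 8 kinases had 1 probe set each. Mark3, a kinase that phosphorylates CDC25C and so makes a binding site for 14-3-3 proteins, was the most even of the 9. Its levels ran from 9.28 to 9.34 in WT and from 9.28 to 9.36 in Lkb1 KO, and the interval of its change reached from -4.74% to 5.25%. Mark4, a microtubule-associated kinase, ran from 8.38 to 8.52 in WT and from 8.32 to 8.50 in Lkb1 KO, and its log2 fold change came to -0.051 (SE 0.048, limma adjusted p = 0.712).

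**Figure D2:**
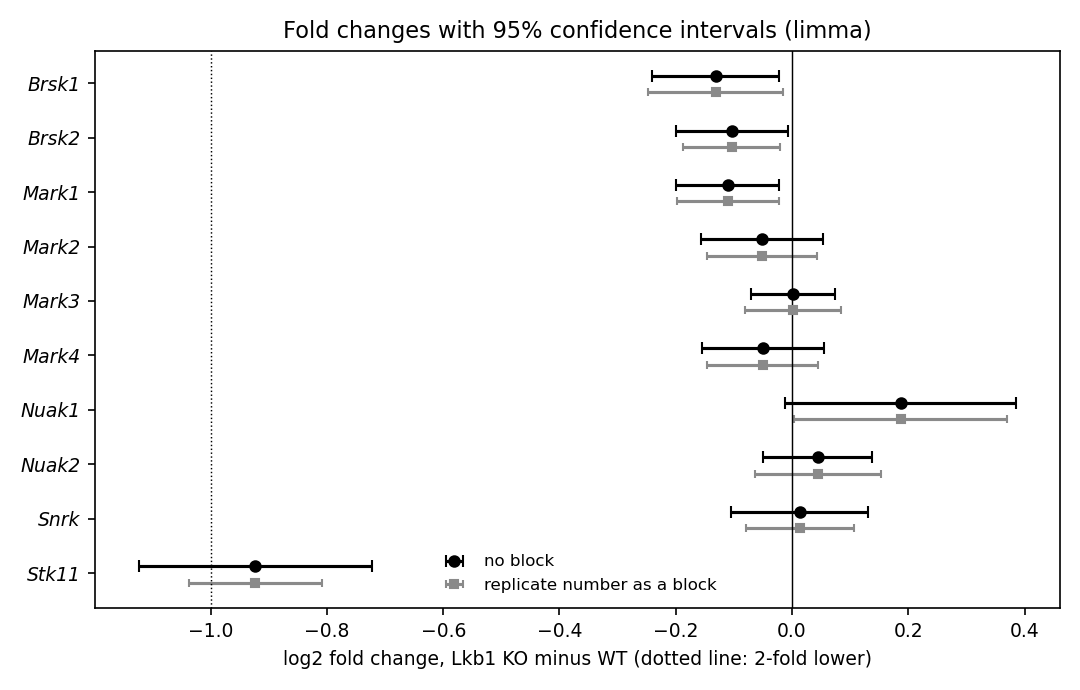
Difference in log2 level (x axis, Lkb1 KO minus WT) for each kinase gene and for Stk11 with its 95% confidence interval, without (black) and with (grey) the replicate number as a block. The intervals of Mark2, Mark3, Mark4, Nuak2 and Snrk span 0 in both fits, those of Brsk1, Brsk2 and Mark1 lie just below 0, and that of Nuak1 spans 0 without the block and starts at 0.0040 with it. The intervals of all 9 lie far from the change of Stk11.

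Nuak1 had the largest change in size among the 9 and was higher in Lkb1 KO, and whether it passed the test depended on 1 WT sample. It was at 9.54, 9.48, 9.57, 9.46 and 9.98 in WT and at 9.89, 9.75, 9.92, 9.67 and 9.72 in Lkb1 KO. WT replicate 5 held the highest value of all 10 samples, while the other 4 WT samples lay below all 5 Lkb1 KO samples. With all samples the log2 fold change was 0.19 (SE 0.091, 95% CI -0.012 to 0.39, limma adjusted p = 0.368), a linear difference of 13.8% with an interval from -0.809% to 30.6%. The exact two-sided permutation test gave p = 0.127, and the permutation within replicate numbers gave an exact p of 0.188.

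Without WT replicate 5, Nuak1 had a WT mean of 9.51 (SD 0.05, n = 4) against 9.79 in Lkb1 KO (SD 0.11, n = 5). The log2 fold change was then 0.28 (SE 0.057, 95% CI 0.16 to 0.41, limma adjusted p = 0.0203), which passed the test and is 21.5% in linear terms. The groups no longer overlapped, as was so for 8.44% of all genes without that sample, and 3.84% of all genes were called. The labels name no reason to leave out WT replicate 5. It was the outlying WT sample of Nuak1 itself, so this p is not independent of the choice of sample. Leaving out any other single sample gave a limma adjusted p between 0.364 and 0.600. Among the WT samples, WT replicate 5 had the lowest mean of the sensory neuron list, at 10.35 against 10.42 to 10.48, and the highest mean of the fibroblast and mesenchyme list, at 9.07 against 8.94 to 8.99. Across Lkb1 KO samples the mesenchyme mean ran from 9.30 to 9.40. The part of these shifts in the Nuak1 values was not tested.

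The other NUAK gene, Nuak2, gave a weak signal. Its mean of 5.20 lay below the median over all genes of 6.73, and with no detection call at hand a change at this level can be compressed. It ran from 5.09 to 5.22 in WT and from 5.14 to 5.29 in Lkb1 KO, and the difference in log2 level was 0.044 (SE 0.043, limma adjusted p = 0.722). Snrk was at 10.33, 10.32, 10.31, 10.32 and 10.16 in WT and at 10.46, 10.36, 10.23, 10.27 and 10.20 in Lkb1 KO. The first 4 WT samples lay within 0.02 of each other, and WT replicate 5 lay below all 9 other samples. The log2 fold change of Snrk was 0.013 (SE 0.054, limma adjusted p = 0.948), with a linear interval from -7.01% to 9.53%.

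The intervals give the range of differences in array signal compatible with these pools. The 95% confidence intervals of all 9 kinases lay within 1.5-fold in either direction, and those of 8 within 1.2-fold. The exception was Nuak1, whose interval reached 1.31-fold. For Nuak2, with its weak signal, the interval bounds the measured signal and not the fold change of the transcript. With Lkb1 KO replicates 2 and 5 left out, the pools without Y-linked signal, 0 of the 9 were called and the log2 fold change of Mark2 was -0.10 (limma adjusted p = 0.390). Those of the other kinases were then -0.17 (Brsk1), -0.13 (Brsk2), -0.12 (Mark1), -0.0070 (Mark3) and -0.048 (Mark4). Nuak1 stood at 0.22, Nuak2 at 0.030 and Snrk at 0.030. A p that misses the threshold does not show that a gene had equal levels in both groups, and a difference of the size seen for Brsk1, Brsk2 and Mark1 was not resolved by 5 pools a group.

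**Figure D3:**
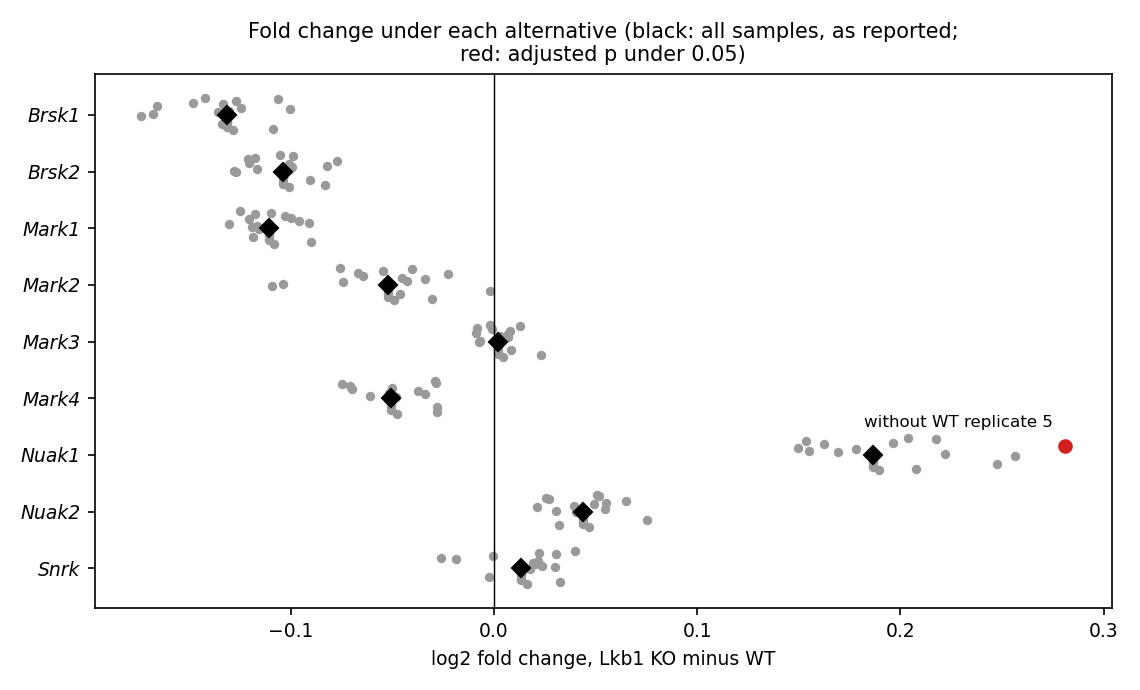
Log2 difference between Lkb1 KO and WT (x axis) for each kinase gene with all samples (black diamonds) and under each of 21 alternatives of processing or sample choice (points), red where the adjusted p was under 0.05. The 1 red point is Nuak1 without WT replicate 5, at 0.28, and the points of Mark3 and Snrk lie on both sides of 0.

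The transcripts whose levels over the 10 samples were most like those of the 3 kinases with the smallest p were looked up among 9969 genes at or above the median level, as a description with no test. For Brsk1 they were Katnal1, a katanin-like gene (Pearson r = 0.957), the neuronal transcription factor gene Tlx3 (0.956) and the zinc finger gene Casz1 (0.949). For Brsk2 they were the JNK scaffold gene Mapk8ip1 (r = 0.952), the actin regulator gene Wasf1 (0.941) and Rsrp1 (0.941). For Mark1 they were the microtubule-binding gene Nav1 (r = 0.940), Mdga1 (0.923) and the kinase gene Dapk1 (0.908). Of these 9 transcripts only Mdga1, which encodes a membrane-anchored adhesion protein, passed the test, with a log2 fold change of -0.19 (limma adjusted p = 0.0442). The 10 samples hold both genotypes, so part of each correlation is the shared difference between the groups.

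Of 53 measured genes from 9 lists around these kinases, 2 passed the test as higher and 2 as lower in Lkb1 KO, and 49 did not pass. Over all genes 2.49% passed as higher and 1.38% as lower, and 1 of the 2 lower genes here was the deleted gene, Stk11. The median log2 fold change of the 53 was -0.016, beside -0.0017 for all genes. Of the 5 genes of the LKB1 complex, Stk11 was lower and 4 did not pass. The pseudokinase gene Stradb differed by -0.13 on the log2 scale (limma adjusted p = 0.279), and the MO25 genes Cab39 and Cab39l had 0.032 and 0.11. Of the other LKB1 substrate kinases, 1 of 5 was higher, the salt-inducible kinase gene Sik3, with a mean of 8.32 in Lkb1 KO against 8.09 in WT (SDs 0.12 and 0.05, n = 5 each). Its log2 fold change was 0.23 (SE 0.056, limma adjusted p = 0.0433). That call was lost when any 1 of WT replicates 1 to 5 or Lkb1 KO replicates 2, 4 or 5 was left out, with an adjusted p between 0.0565 and 0.115. It was also lost with array medians aligned (0.0577), with all probe sets tested (0.109), by the analysis of variance (0.119), without Lkb1 KO replicates 2 and 5 (0.220) and with the Y-linked covariate (0.231). The salt-inducible kinase genes Sik1 and Sik2 had 0.16 and 0.042 and did not pass. Sik1 reached an unadjusted p of 0.0177 in limma (adjusted p = 0.193). The AMPK catalytic genes Prkaa1 and Prkaa2 had -0.016 and -0.062. The test of each kinase was its own, and the difference between Sik3 and the 9 kinases was not tested.

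Melk, an AMPK-related kinase that does not depend on LKB1 and is known from dividing cells, had a mean of 6.78 in Lkb1 KO against 6.51 in WT (SDs 0.11 and 0.04, n = 5 each). It rose by 0.27 log2 units (SE 0.051, limma adjusted p = 0.0117), and each Lkb1 KO sample lay above the highest WT sample. Markers of dividing cells were higher in the same samples, with 6 of 7 passing the test and list means from 9.0 to 9.29 in Lkb1 KO and from 8.60 to 8.84 in WT. The part of this shift in Melk was not tested. Without Lkb1 KO replicates 2 and 5 the limma adjusted p of Melk was 0.0645, and with the Y-linked covariate it was 0.0859. The other 2 kinases of its list, Hunk and Nim1k, did not pass. None of 3 other kinases known to act on an activation loop passed, with Camkk2 at -0.11 (limma adjusted p = 0.450) and Map3k7, the gene of TAK1, at 0.039 (0.664).

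Of 12 genes of the PAR and basolateral polarity proteins, with which the PAR-1 relatives interact across species, 1 was lower. This was Pard6b, a PAR-6 gene, with a mean of 7.21 in Lkb1 KO against 7.39 in WT (SDs 0.07 and 0.05, n = 5 each). Its log2 fold change was -0.18 (SE 0.043, limma adjusted p = 0.0376), and the groups did not overlap. Pard6b was called by 10 of 21 alternatives. The limma adjusted p was 0.0535 with the replicate number as a block, 0.0696 with a robust intensity trend and 0.0854 with all probe sets tested. It lay between 0.0687 and 0.106 when any 1 of WT replicates 1 to 4 or Lkb1 KO replicates 1, 3 or 4 was left out, and a one-way analysis of variance gave 0.0696. Pard3 and the atypical protein kinase C genes Prkci and Prkcz had log2 fold changes of -0.031, 0.025 and -0.093 and did not pass the test.

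**Figure D4:**
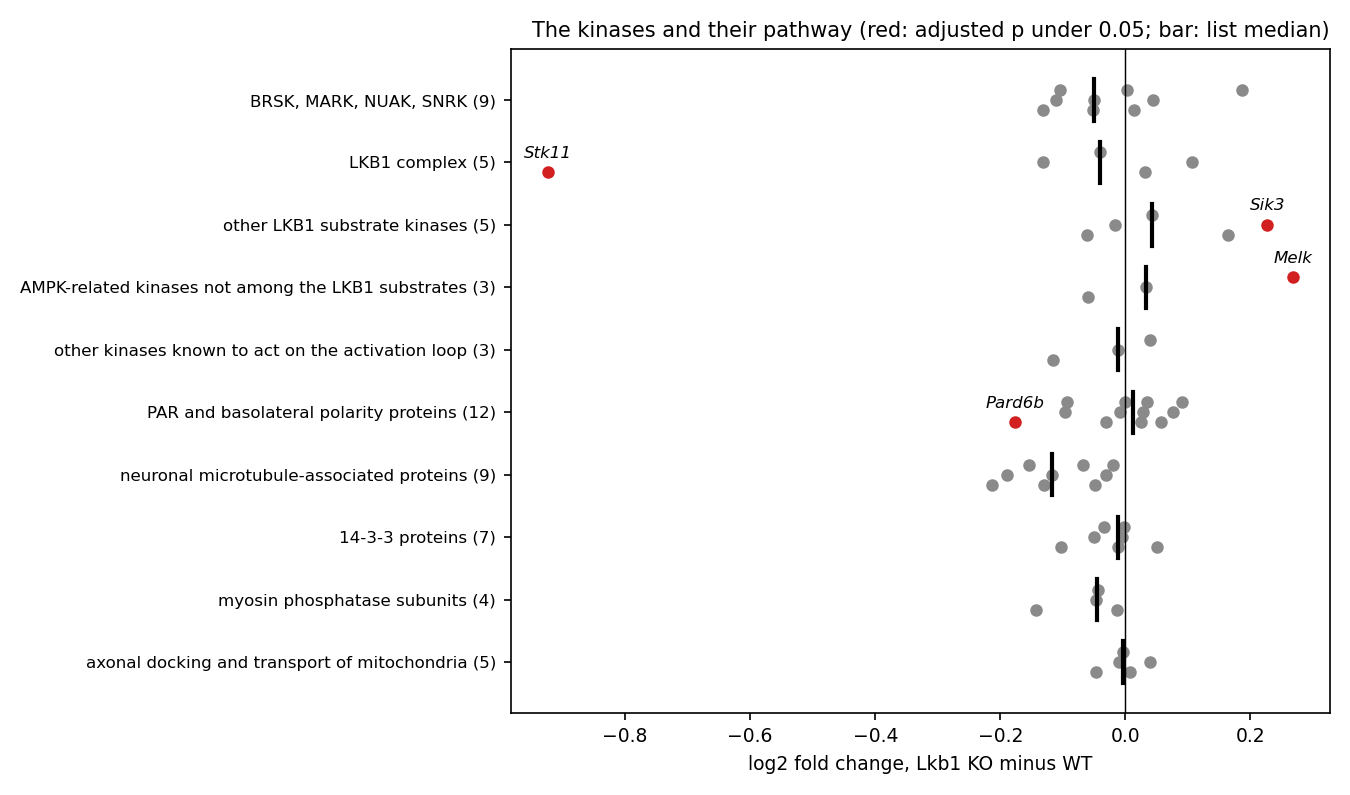
Log2 difference between Lkb1 KO and WT (x axis) for the 9 kinases and for each measured gene of 9 pathway lists (y axis, number of genes in brackets), red for genes called by limma, with the list median as a black bar. Stk11, Sik3, Melk and Pard6b are red. The kinase list has a median of -0.051 and no red point, and the genes of microtubule-associated proteins all lie below 0.

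Genes of microtubule-associated proteins, a group to which MARK substrates such as tau belong, were measured as well. All 9 genes of this list had a negative log2 fold change, with a median of -0.12, as did 10157 of the 19938 genes tested. In limma 0 of the 9 passed the test, and 4 were lower at an unadjusted p under 0.05, beside 7.77% of all genes. The doublecortin gene Dcx, which encodes a microtubule-binding protein of young neurons, had a mean of 11.54 in Lkb1 KO against 11.66 in WT (SDs 0.02 and 0.03, n = 5 each), with no overlap. Its log2 fold change was -0.12 (SE 0.032, limma adjusted p = 0.0709). It was called by 3 of 21 alternatives. These were a one-way analysis of variance (adjusted p = 0.0162) and limma with a robust intensity trend (0.0213) or with array weights (0.0429). The others did not call Dcx, with a limma adjusted p of 0.0981 with the replicate block. Leaving out 1 sample gave 0.0725 to 0.172. The dendritic gene Map2 had -0.13 (limma adjusted p = 0.217). With the block the tau gene Mapt was called, at -0.19 (limma adjusted p = 0.0166), against 0.240 without it. Mapt is named here after its values were seen. Dcx, Map2 and Mapt are neuronal, like the sensory neuron list described above, and the part of that shift in them was not tested.

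The remaining lists held no calls. None of 7 genes of 14-3-3 proteins, which bind sites phosphorylated by MARK kinases, passed the test, and 1 had an unadjusted p under 0.05. That one was Ywhag, with a log2 fold change of -0.10 (limma adjusted p = 0.297). None of 4 genes of myosin phosphatase subunits, the partners of the NUAK kinases, passed, and again 1 had an unadjusted p under 0.05. This was Ppp1r12b, at -0.14 (limma adjusted p = 0.266). Of 5 genes of axonal docking and transport of mitochondria 0 passed, also 0 at an unadjusted p under 0.05. The mitochondrial adaptor genes Trak1 and Trak2 had -0.047 and 0.040, and the docking gene Snph, which acts with NUAK1 in the branching of cortical axons, had -0.0037 (limma adjusted p = 0.986).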

How the data were processed

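RNA of the 10 DRG pools was extracted with Trizol, and each pool was run on its own Affymetrix Mouse Gene 1.0 ST array in 1 colour. The values are log2 expression levels as deposited by the authors, for 35556 probe sets. RMA is named in the submitters' processing notes (background correction, quantile normalization and probe set summary), as is Partek 6.6, and the methods name MATLAB. Probe sets that the platform's annotation pairs with 1 gene (21789) were kept, named through RefSeq identifiers (21698 matched), and the brightest of each gene was used, which left 19938 genes. The highest array median was 6.57 and the lowest 6.50. Depth does not apply to arrays, and the number of arrays limits the precision.

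The 2 groups entered a two-sided limma fit (version 3.58.1, lmFit with eBayes, under R 4.3.3) over all 19938 genes, with Benjamini-Hochberg adjustment, no filter on dim genes and a gene called at an adjusted p under 0.05. The p-values set the difference between the groups against the spread between pools of a group. The fit was tested on simulated data. Exact permutation tests used all 252 assignments of the samples, or the 32 within replicate numbers. Same-numbered samples of the 2 groups deviated together (correlations from 0.21 to 0.48 across genes), so the numbers were taken to pair them. The labels do not say what a number marks. Tables and exact tests were made in Python 3.11.15 with pandas 2.3.3.

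The kinases, the lists and the alternatives were chosen with earlier results of these data known. Named genes were the 9 kinases, Stk11, and of each pathway list the called genes or else up to 2 with the smallest p. Stradb, Cab39, Cab39l, Prkaa1, Prkaa2, Sik1, Sik2, Hunk, Nim1k, Pard3, Prkci, Prkcz, Mapt and Snph were added beyond that rule, some after their values were seen. Of 55 pathway genes 53 were measured, and Camkk1 and Rhot2 were not analysed here. As alternatives the arrays were rescaled (aligned medians or cyclic loess), the test was exchanged (one-way analysis of variance, limma with a robust intensity trend, limma with array weights), the gene set was altered (without the dimmest 30%, averaged probe sets, every probe set), and the samples were treated differently (replicate block, Y-linked covariate, Lkb1 KO replicates 2 and 5 dropped, single samples dropped).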

Additional observations from a re-analysis of the deposited data

Results flagged for a closer look

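In 4 of 46 groups of 5 samples, from the 9 kinases and the other genes named by the rule, 1 sample lay apart from the rest of its group. Chance alone marks about 1 in 20 groups in this way, and the groups are not independent since they share samples. In each of these cases the sample was WT replicate 5. Nuak1 was at 9.98 there against 9.46 to 9.57 in the other WT samples, and Snrk was at 10.16 against 10.31 to 10.33. The phosphatase gene Ppp1cb was at 11.37 against 11.25 to 11.27, and the 14-3-3 gene Ywhag at 11.19 against 11.33 to 11.37. Over all genes tested, WT replicate 5 lay apart in 2.19% of genes and Lkb1 KO replicate 4, the highest, in 3.47%, while the other samples ranged from 0.522% to 1.56%.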

How the results depend on the processing

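Of 189 comparisons of the 9 kinases under 21 alternatives, 178 kept the direction and the side of the threshold, 1 passed the test and 10 changed sign. The 1 was Nuak1 without WT replicate 5 (0.28, adjusted p = 0.0203 from limma), so that the number called higher was between 0 and 1 when 1 sample was left out, and the number called lower was 0 throughout. The number at an unadjusted p under 0.05 was between 0 (without WT replicate 3) and 4 when 1 sample was left out. The log2 fold change of Mark3 changed sign with the Y-linked covariate (-0.0072), without Lkb1 KO replicates 2 and 5 (-0.0070) and without single samples (range -0.0090 to 0.013). That of Snrk did so with array weights (-0.0022) and without single samples (range -0.026 to 0.040). None of these values passed the test. The 4 calls among the pathway genes became 2 when all probe sets were tested, with the Y-linked covariate and without Lkb1 KO replicates 2 and 5, 3 with array medians aligned or the analysis of variance, and 5 with array weights. They were between 2 and 3 when 1 sample was left out, with 2 without any 1 of WT replicates 1 to 4 and Lkb1 KO replicate 4. With the replicate block the calls were also 4, with Mapt gained and Pard6b lost (adjusted p = 0.0535), and no call of a kinase changed. The cause of these changes was not tested. Small differences at dim genes such as Nuak2 are limited by signal over background, for which no value was at hand.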

Other observations

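The 3 transcripts most like Nuak1 over the 10 samples, looked up after its values were seen, were Vkorc1 (Pearson r = 0.899), the endoplasmic reticulum chaperone gene Hspa5 (0.891) and Mettl15 (0.884). None of them passed the test, with log2 fold changes of 0.049, 0.082 and 0.032. Stk11 itself was highest in replicate 5 of both groups, at 9.08 in WT and 7.94 in Lkb1 KO.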
